A study of Arabidopsis thaliana with 16 samples.

Results

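Roots of Arabidopsis thaliana seedlings kept wholly at 32 °C were compared with roots of seedlings kept wholly at 22 °C. The comparison was taken from the deposited table by its column names, and it covers 5 of the 16 deposited columns, 3 of 32 °C roots and 2 of 22 °C roots. The 2 columns of 22 °C roots are equal at all 32833 loci and were counted as 1 library, so 3 libraries stand against 1. All seedlings were wild type and 10 days old, and no transgene or mutation is given. After 4 days on MS1/2 at 22 °C, the remaining 6 days were spent at 32 °C or at 22 °C. A set of 3 further root libraries, from plants whose shoots were at 32 °C while the root zone cooled with depth, entered the estimate of the spread and is called the gradient roots. Shoots of the same regimes were measured too and serve here only for a comparison between the organs.

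Tested genes reached 10 or more in 2 or more root columns, which 21877 of 32833 loci did. The filter reads the identical 22 °C columns as 2, and 120 genes passed only through them. Of these, 57 were called lower and 0 higher by limma, so a gene that is high at 22 °C alone had an easier entry. Column totals of the root libraries lay between 34021280 and 34769425 normalised counts. Read depth is unknown. Values are not corrected for gene length, so levels are compared within a gene only. The labels do not say that replicates were separate cultures, so the spread behind the p-values is that of these libraries and could be technical. With a single distinct library, 22 °C roots have no spread of their own, and that of the other root groups stands in for it. The tissue was whole root, in which fewer cells of a type and less RNA per cell cannot be told apart. The sources used here do not give strand or the handling of reads shared by near-identical genes, so values of tandem copies, organelle genes with nuclear copies and overlapping or antisense genes are uncertain.

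A root grows from a small stem cell region at its tip, elongates behind it by loosening cell walls, and then builds xylem vessels, barriers and hairs. Temperature alters its water, ion and hormone transport and its respiration. Plant mitochondria carry a bypass of the usual electron transport chain, made of type II NAD(P)H dehydrogenases and the alternative oxidase, which passes electrons to oxygen with little or no proton pumping. Heat shock, aquaporin and suberin genes were set aside here, and the account concerns the other groups.

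By limma, 9630 genes were called at a Benjamini-Hochberg adjusted p below 0.05, or 44% of those tested. The calls comprised 6984 genes higher in 32 °C roots, 31.9%, and 2646 lower, 12.1%. Fitted folds reached 10 for 390 of the genes called higher and 137 of those called lower. Across all genes the median log2 fold change was 0.29, and TMM scaling, which centres most genes, moved it to -0.01. With TMM scaling 39.6% of genes were called, 4240 higher, 19.4%, and 4424 lower, 20.2%. All 4240 were among the genes called higher in the values as deposited, and all 2646 called lower were lower again. Which scaling is right was not tested, so counts of gene groups are given under both. With 1 library at 22 °C, the groups did not overlap in 18730 of all 21877 genes, so a lack of overlap is described below and carries no weight of its own. A minimum fold change of 2 left 940 genes called higher and 313 called lower.

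**Figure D1:**
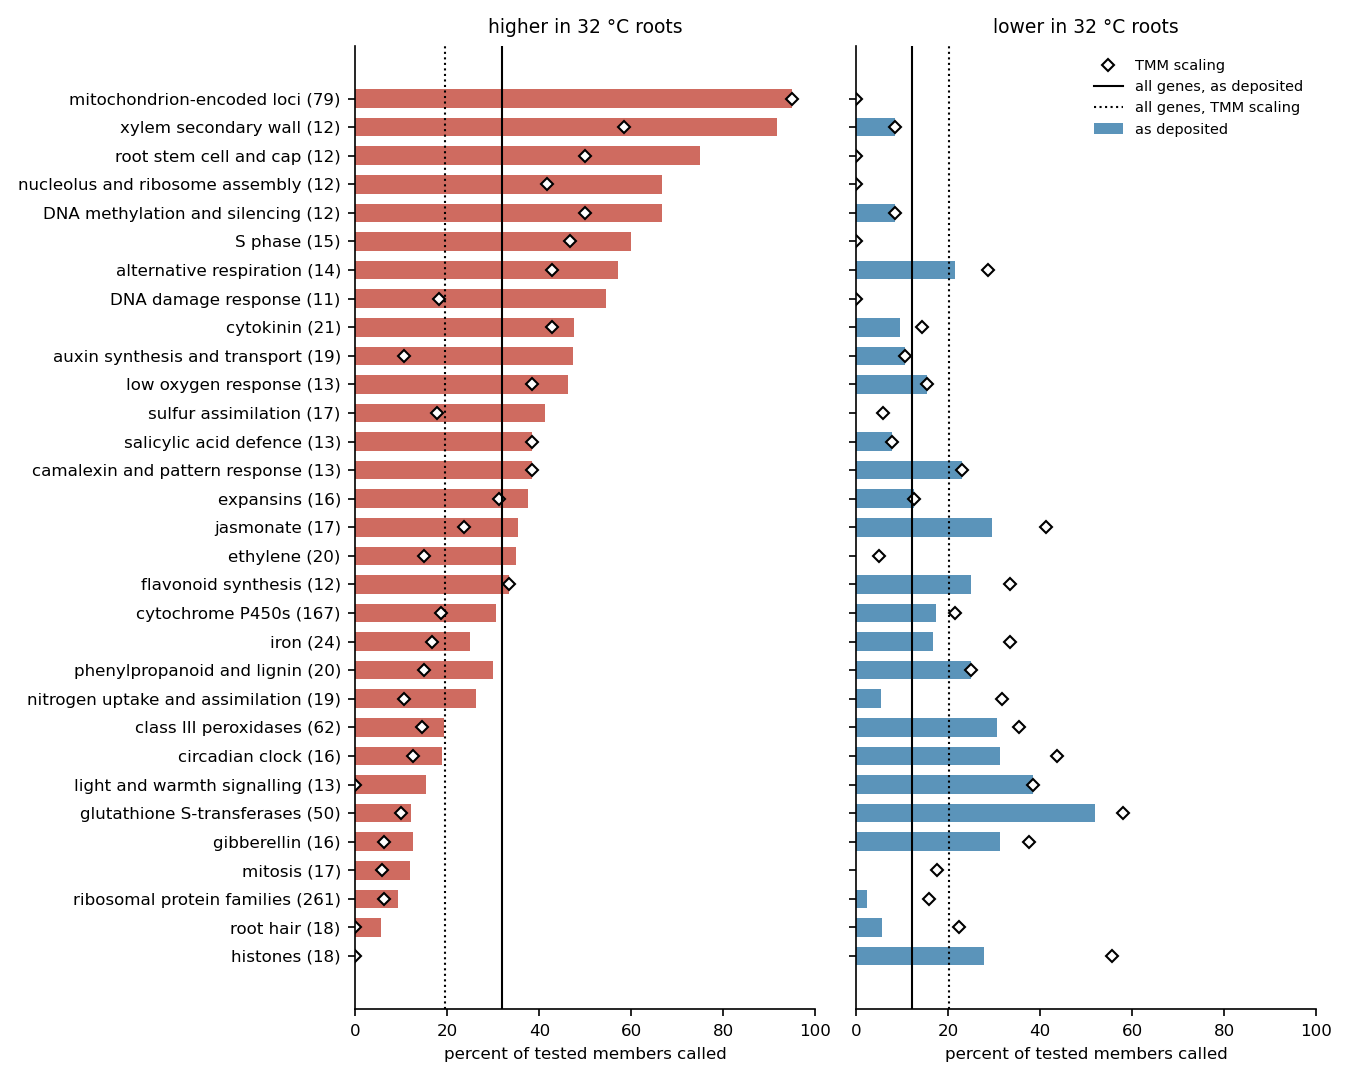
Percent of tested members of the gene lists shown that were called higher (left panel) or lower (right panel) in 32 °C roots, with the number tested in brackets. Bars show values as deposited, diamonds TMM scaling, and vertical lines the share of all genes, 31.9% and 12.1% as deposited.

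Mitochondrion-encoded transcripts had the highest median change of the 48 gene lists counted. Of 79 such loci tested, 75 were higher in 32 °C roots, 0 were lower and 4 were not called, with the same 75 to 0 split after TMM scaling. The share higher was 94.9%, beside 31.9% of all genes. Their median log2 fold change was 4.23, or 3.96 after TMM scaling, beside 0.29 for all genes. Fitted log2 changes of the called loci ran from 1.79 to 6.41. The locus ATMG00160 had 3713, 5311 and 2978 normalised counts in 32 °C roots, against 55 in 22 °C roots. ATMG01200 had 760, 1267 and 640 in 32 °C roots and 9 in 22 °C roots. Each 32 °C library lay above the 22 °C library at all 79 loci, beside 12236 of all 21877 genes. Replicate 2 was the highest and replicate 3 the lowest of the 32 °C libraries at 71 of the 79 loci. The locus with the most counts, ATMG00020, was among the 4 not called, at 158558, 218620 and 130398 in 32 °C roots against 124972 in 22 °C roots (log2 fold change 0.40, adjusted p = 0.42). Summed over all 152 mitochondrion-encoded loci in the table, the share of the column total was 0.753%, 1.07% and 0.591% in 32 °C roots, against 0.453% in 22 °C roots. Gradient roots had 0.17%, 0.191% and 0.232%, below the 22 °C value. Without the pair of most abundant loci, mitochondrion-encoded transcripts made up 0.195%, 0.294% and 0.142% of the column totals in 32 °C roots and 0.0313% in 22 °C roots. In the gradient roots that smaller share was 0.0262%, 0.0246% and 0.0323%, which brackets the 22 °C value, so the place of the gradient roots depends on the abundant pair. The libraries were made from RNA selected with oligo(dT) beads, and any part of that selection in these values was not tested.

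Nuclear loci between AT2G07652 and AT2G07787 on chromosome 2 moved the same way. This stretch was chosen after the values were seen and holds loci such as AT2G07722 and AT2G07652, so the counts are a description. Of 41 loci tested there, 40 were higher and 0 lower, or 39 and 0 after TMM scaling, and the median log2 fold change was 4.05. Of all genes 31.9% were higher and 12.1% lower. AT2G07698, annotated as an ATPase F1 alpha subunit, had 1388, 2212 and 1088 normalised counts in 32 °C roots and 67 in 22 °C roots. In 34 of the 41 loci the 32 °C libraries stood in the order seen for the mitochondrial genome, replicate 2, then 1, then 3. That order also held in 54 of 80 chloroplast-encoded loci and in 7243 of all 21877 genes. Whether reads of mitochondrial transcripts were assigned to these loci was not tested. Chloroplast-encoded loci were seldom called: of 80 tested, 10 were higher and 5 lower, or 10 and 9 after TMM scaling, and the median log2 fold change was -0.34. As deposited these are 12.5% higher and 6.25% lower. Among the 80, 4 passed the filter only through the identical 22 °C columns. The count of 5 lower was 3 without 32 °C replicate 1 or 3, 9 without gradient replicate 1 and 13 without gradient replicate 3.

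Some nuclear genes of alternative respiration rose and others did not. The list holds dehydrogenases, oxidases and stress markers of the mitochondrion, and 8 of 14 tested members were higher, 3 lower and 3 not called. After TMM scaling 6 were higher and 4 lower. The shares as deposited were 57.1% higher and 21.4% lower, beside 31.9% and 12.1% of all genes. NDB4, an external type II NAD(P)H dehydrogenase, had 1011, 873 and 1212 normalised counts in 32 °C roots against 3 in 22 °C roots. NDB3 of the same family had 704, 656 and 677 in 32 °C roots and 8 in 22 °C roots, and the internal enzyme NDA1 had 267, 227 and 247 against 4. In each case all 32 °C libraries lay far above the single 22 °C library. The log2 fold change was 8.0 ± 0.52 (SE, adjusted p = 7.8e-05) for NDB4, and 7.75 after TMM scaling. The alternative oxidase AOX1C followed with 227, 256 and 205 normalised counts in 32 °C roots and 3 in 22 °C roots (log2 fold change 5.84, adjusted p = 5.9e-05). AT2G21640, described in RefSeq as a marker for oxidative stress response, had 2324, 2276 and 2475 against 62. OM66, an outer mitochondrial membrane protein and stress marker, had 2307, 3111 and 3158 in 32 °C roots and 505 in 22 °C roots.

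Other members of the list were not called or fell, and the 3 called lower are not named here. AOX1A, the usual stress marker among the alternative oxidases, stood at 3202, 3053 and 3541 normalised counts in 32 °C roots and 3161 in 22 °C roots, and the groups overlapped (log2 fold change 0.04, adjusted p = 0.81). Its sign turned with TMM scaling, to -0.25, and without 32 °C replicate 3, to -0.02. NDB2 had 3284, 2759 and 3695 against 3501, also with overlap. NDB1 was at 550, 562 and 580 in 32 °C roots and 657 in 22 °C roots (log2 fold change -0.22, adjusted p = 0.28), and it was called lower after TMM scaling at -0.51. In the gradient roots NDB4 had 43, 21 and 14 normalised counts and AOX1C had 34, 39 and 59, between the 32 °C and 22 °C values.

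**Figure D2:**
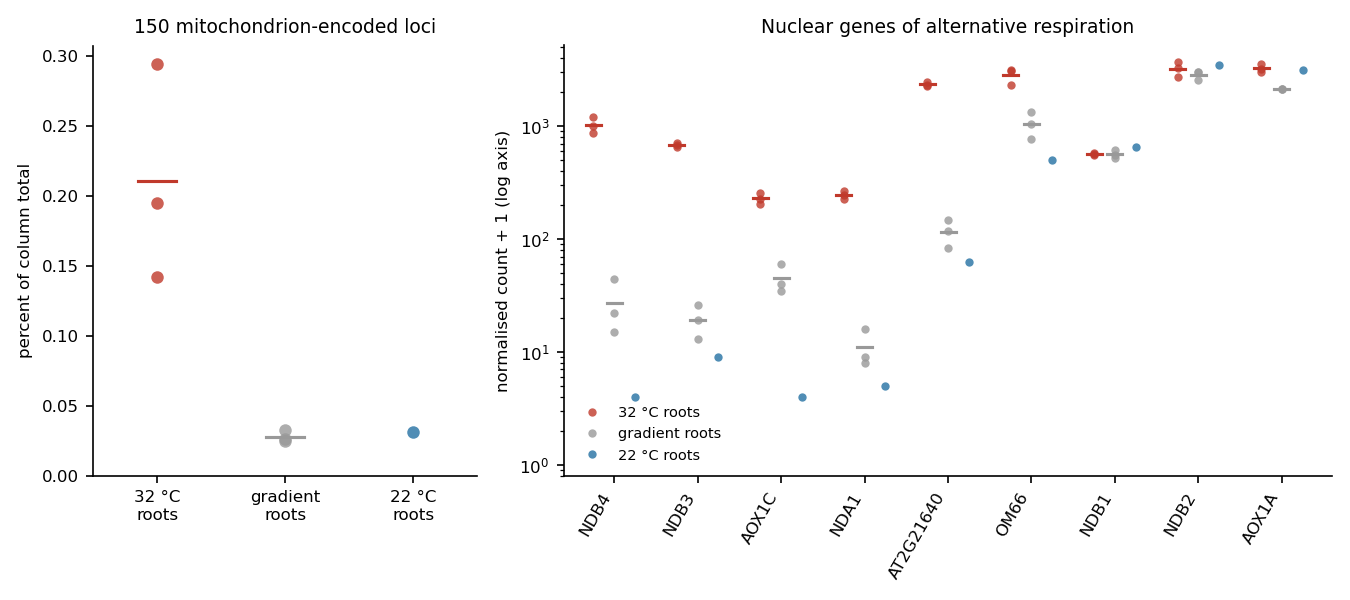
Left, percent of the column total held by 150 mitochondrion-encoded loci, and right, normalised count + 1 on a log axis for nuclear genes of alternative respiration, with 1 point a library and bars at means of 3. The 3 libraries of 32 °C roots lie at 0.142% to 0.294% against 0.0313% at 22 °C, and NDB4 to OM66 separate while NDB2 and AOX1A overlap. The 3 list members called lower are not drawn.

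Among the 12 largest rises, 3 are annotated in RefSeq as hypothetical proteins with a DUF295 domain. AT5G52940 had 572, 471 and 724 normalised counts in 32 °C roots and was listed at 0 in 22 °C roots. AT4G25930 had 289, 222 and 391, and AT5G54560 had 191, 177 and 225, with both again listed at 0. The gradient roots held at most 9, 2 and 3 counts of the 3 genes. Across all genes whose RefSeq product names DUF295, a set chosen after the values were seen, 17 of 26 tested were higher and 1 lower, with the same 17 and 1 after TMM scaling. Of all genes 31.9% were higher and 12.1% lower. AT5G09570, a Cox19-like protein with a CHCH motif, had 2778, 2247 and 3379 against 22 (log2 fold change 6.91 ± 0.33, adjusted p = 3.2e-05).

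Isocitrate lyase, ICL, was also among the largest rises. This enzyme of the glyoxylate cycle lets seedlings turn stored lipid into sugar. It had 22403, 38006 and 9340 normalised counts in 32 °C roots and 96 in 22 °C roots (log2 fold change 7.69 ± 0.63, adjusted p = 0.00017). The 32 °C libraries differed widely, in the order replicate 2, 1, 3, yet each was far above the 22 °C library. The gradient roots had 519, 402 and 328. Malate synthase, MLS, the other enzyme peculiar to this cycle, was looked up after the values of ICL were seen, and its 1009, 1529 and 644 counts in 32 °C roots against 437 in 22 °C roots were not called (adjusted p = 0.068).

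A pair of kinase genes and a cysteine-rich peptide gene were among the largest rises too. The leucine-rich repeat kinase AT5G37450 had 186, 278 and 393 normalised counts in 32 °C roots and 1 in 22 °C roots. The kinase AT1G66930 had 445, 460 and 528 against 3. LCR85, a small cysteine-rich protein, had 236, 201 and 432 and was listed at 0 in 22 °C roots. Unlike the DUF295 genes, these were also high in the gradient roots, where LCR85 had 643, 688 and 654 counts, AT5G37450 had 162, 150 and 166, and AT1G66930 had 388, 281 and 192.

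The largest falls were led by cytochrome P450 genes, whose products oxidise small molecules. CYP93D1 had 0, 0 and 1 normalised counts in 32 °C roots against 407 in 22 °C roots (log2 fold change -8.34 ± 0.54, adjusted p = 7.8e-05). CYP712A2, its neighbour by locus number, was listed at 0 in all 3 libraries of 32 °C roots and at 233 in 22 °C roots. CYP76G1 had 1, 1 and 4 against 495. All 3 genes were almost silent at 32 °C, and the gradient roots lay between, at 73, 112 and 114 for CYP93D1. Across the family, 51 of 167 P450 genes tested were higher and 29 lower, against 31.9% and 12.1% of all genes. TMM scaling turned the balance to 31 higher and 36 lower. Of the 167, 3 passed the filter only through the identical 22 °C columns. CYP707A3, which breaks down abscisic acid, had 1345, 1637 and 1524 in 32 °C roots and 323 in 22 °C roots. CYP96A8 had 176, 193 and 154 against 11.

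Genes of other roles fell as steeply. BGAL7, a beta-galactosidase, had 48, 45 and 41 normalised counts in 32 °C roots and 3571 in 22 °C roots, a 78.4-fold fitted fall (log2 fold change -6.29 ± 0.26, adjusted p = 3e-05). CCOAMT (AT1G67980), a caffeoyl-CoA O-methyltransferase, had 16, 23 and 16 against 1832. SAG13, a senescence marker, had 2, 4 and 1 against 377. In all 3 genes the 32 °C libraries were tightly grouped far below the 22 °C library, and the gradient roots had 133, 111 and 92 counts of BGAL7 and 52, 96 and 92 of CCOAMT. The auxin response factor gene ARF20 had 1, 0 and 4 against 132, and the defensin-like gene AT4G22217 had 1, 1 and 2 against 312.

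**Figure D3:**
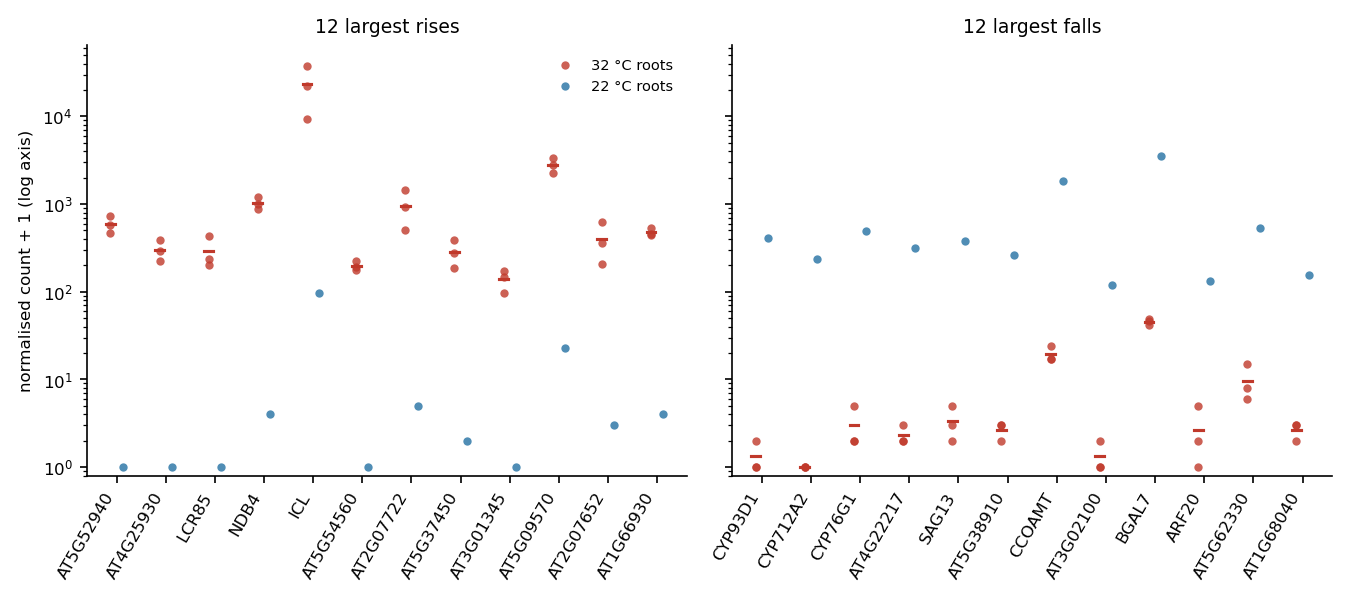
Normalised count + 1 on a log axis for the 12 largest rises (left) and the 12 largest falls (right), 32 °C roots left of 22 °C roots for each gene, with 1 point a library and bars at means of 3. No gene overlaps between the groups by construction of the rule that named them.

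The largest falls in mean normalised count were those of genes with high counts. AT4G11320, a papain family cysteine protease with a close neighbouring copy, had 40269, 31033 and 41393 normalised counts in 32 °C roots and 228211 in 22 °C roots (log2 fold change -2.61, adjusted p = 0.00055). DR4, named in RefSeq as drought-repressed, had 56636, 41714 and 71162 against 169950. AT2G33830, of the dormancy and auxin associated family, had 10448, 13166 and 7165 against 84591. DOX1, which oxidises fatty acids, had 29457, 35297 and 30416 against 96300, and the ubiquitin gene UBQ3 had 31386, 29684 and 27737 against 104182. All of these were called lower. The 18S ribosomal RNA locus AT3G41768 had 12557, 13937 and 10579 in 32 °C roots and 74081 in 22 °C roots. Ribosomal RNA lacks the tail that oligo(dT) selects, and the part of residual ribosomal RNA in other values was not tested.

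In the other direction JAL22, a jacalin-related lectin, had 118808, 97786 and 100040 normalised counts in 32 °C roots and 33932 in 22 °C roots (adjusted p = 0.0055). AT5G26280, a TRAF-like protein, had 41546, 40863 and 39729 against 10544 (adjusted p = 0.00054). The largest gain in mean count was that of BGLU23, the PYK10 beta-glucosidase of ER bodies, at 492918, 433356 and 560459 in 32 °C roots and 355822 in 22 °C roots. It was not called (adjusted p = 0.56). Its relative BGLU21 fell, with 11738, 7701 and 15097 against 27527 (adjusted p = 0.015).

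Glutathione S-transferases, which couple glutathione to reactive compounds, fell in about as many members as did not. Of 50 tested members 26 were lower, 6 higher and 18 not called, with 29 lower and 5 higher after TMM scaling, beside 12.1% lower among all genes. Among the 50, 1 passed the filter only through the identical 22 °C columns. The median log2 fold change was -1.14. GSTF6 had 3796, 5410 and 5599 normalised counts in 32 °C roots and 34185 in 22 °C roots, and GSTF2 had 3579, 4615 and 4042 against 23767. GSTU24 had 1789, 1656 and 1942 against 7350. Close copies exist for the first pair, so the split of reads between neighbours is uncertain. GSTF14 went the other way, with 1619, 1471 and 2032 in 32 °C roots and 100 in 22 °C roots (log2 fold change 4.07 ± 0.28, adjusted p = 8.9e-05).

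In the list of class III peroxidases, secreted enzymes that cross-link walls and handle hydrogen peroxide, 19 of 62 tested were lower and 12 higher. After TMM scaling these were 22 and 9. The list follows RefSeq descriptions and also holds DOX1, named above for fatty acid oxidation, which is among the 19. The share lower was 30.6%, beside 12.1% of all genes, and the share higher 19.4%, beside 31.9%. The count of 19 was 12 without 32 °C replicate 1. AT5G64120 had 3904, 4431 and 3548 normalised counts in 32 °C roots against 18444, and AT2G35380 had 871, 659 and 993 against 4211. PA2 rose, with 365, 380 and 399 in 32 °C roots and 61 in 22 °C roots. In the list of redox genes of the cell interior 4 of 16 were lower, 25%, and 1 higher, 6.25%, or 5 and 1 after TMM scaling. Besides enzymes this list holds the zinc-finger genes ZAT10 and ZAT12 and the copper chaperone gene CCS. The cytosolic ascorbate peroxidase APX1 had 20925, 17948 and 21475 against 39644, and the catalase CAT3 had 16219, 24781 and 16402 against 39537. APX2, a heat-inducible relative of APX1, was the member that rose, with 162, 268 and 118 in 32 °C roots and 8 in 22 °C roots (log2 fold change 4.27, adjusted p = 0.00039).

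Flavonoid genes did not move as a block. TT4, the chalcone synthase that opens the pathway, had 3781, 4130 and 2034 normalised counts in 32 °C roots and 149 in 22 °C roots (log2 fold change 4.40 ± 0.54, adjusted p = 0.00069). F3H, a later enzyme of the same pathway, had 9, 9 and 8 against 49, and MYB12, an activator of flavonol genes, had 124, 164 and 183 against 401. MYBL2, a repressor of the pathway, had 79, 73 and 56 against 822. Of 12 tested members 4 were higher and 3 lower, and 4 and 4 after TMM scaling. The share higher was 33.3%, near the 31.9% of all genes, and the share lower 25%, beside 12.1%. The 3 lower members are those just named. Besides TT4, the higher members were TT7, a flavonoid hydroxylase named after its values were seen to complete the count, with 89, 119 and 53 against 25, the glycosyltransferase gene UGT78D1, with 162, 172 and 150 against 50, and AT4G14090, with 49, 64 and 58 against 15. FLS1, the flavonol synthase, was not called at 402, 445 and 307 against 281.

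Genes of xylem formation were higher in most members of their list, though not in all. Of 12 tested members of the secondary wall list 11 were higher and 1 lower, or 7 and 1 after TMM scaling, with a median log2 fold change of 1.18. As deposited these are 91.7% and 8.33%, beside 31.9% and 12.1% of all genes. TMM scaling left 4 members not called, and with it 19.4% of all genes were higher and 20.2% lower. The members named here were all called higher as deposited, and the 1 that fell is not among them. VND6, a transcription factor that specifies vessels, had 165, 233 and 237 normalised counts in 32 °C roots and 57 in 22 °C roots. The xylem proteases XCP1 and XCP2, which clear dying vessel cells, followed. XCP1 had 6017, 6224 and 5729 against 1940, and XCP2 had 8466, 8523 and 7894 against 2559. LAC4, LAC11 and LAC17, laccases that polymerise lignin and are counted in the phenylpropanoid list, had log2 fold changes of 1.70, 1.79 and 1.66, each called higher. Summed over 6 xylem markers, VND7, XCP1, XCP2, CESA4, CESA7 and CESA8, 32 °C roots held 22586 to 23704 counts and the 22 °C library 8720, with none of the markers at 0 and all 6 called higher. CESA4, CESA7 and CESA8, the secondary wall cellulose synthases among them, were not called after TMM scaling. Gradient roots held 21267 to 27985. A part of xylem cell number in these values was not tested.

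The general phenylpropanoid pathway showed no common direction. Its list had 6 of 20 members higher, which included the laccases, and 5 lower, with 5 lower again after TMM scaling. The 6 are 30%, near the 31.9% of all genes, and the 5 are 25%, beside 12.1%. The 6 became 3 without 32 °C replicate 1 or 3, without gradient replicate 2 and with TMM scaling, and the 5 became 1 without 32 °C replicate 1 or 2 or gradient replicate 2. CCR2, a cinnamoyl-CoA reductase tied to defence lignin, had 672, 881 and 1106 normalised counts in 32 °C roots and 2054 in 22 °C roots. PAL1, the entry enzyme, was not called, at 10164, 8666 and 13374 against 8446.

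Expansins loosen the wall of elongating cells, and 6 of 16 tested were higher, 5 after TMM scaling, near the background of 31.9%. Those named here all rose. EXPA4 had 18752, 21440 and 21793 normalised counts in 32 °C roots and 3957 in 22 °C roots (log2 fold change 2.38 ± 0.17, adjusted p = 0.00011). EXPA6 had 1375, 1474 and 1559 against 424, and EXPA1 had 1871, 2312 and 2163 against 671. Lower calls numbered 2 in both scalings, or 1 without 32 °C replicate 1 or 2.

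Most listed genes of the root tip were higher. In the list of stem cell and cap regulators 9 of 12 were higher and 0 lower, or 6 and 0 after TMM scaling. The share higher as deposited was 75%. Of all genes 31.9% were higher and 12.1% lower. BRN1 and SMB, which mature the root cap, had 171, 209 and 144 against 52, and 429, 453 and 381 against 225. PLT1, a regulator of the stem cell niche, had 697, 842 and 670 normalised counts in 32 °C roots and 364 in 22 °C roots (log2 fold change 1.01 ± 0.19, adjusted p = 0.0048). CEL5, a cellulase that frees cap cells, had 1715, 1636 and 1667 against 869. WOX5, which marks the quiescent centre, was not called, at 61, 59 and 54 against 36. Over 6 cap and stem cell markers the summed count was 1714 to 2111 in 32 °C roots and 921 in 22 °C roots, with none at 0. A part of tip tissue share in these values was not tested. Endodermis markers went the other way, with 5 of 6 lower and sums of 4729 to 10032 in 32 °C roots and 23438 in 22 °C roots. The 18 root hair genes summed to 4695 to 12775 in 32 °C roots, which overlaps the 11525 in 22 °C roots.

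Most listed DNA replication genes were higher, and most listed mitosis genes were not called. Of 15 S phase genes 9 were higher and 0 lower, 60% and 0%, beside 31.9% and 12.1% of all genes. After TMM scaling these were 7 and 0, beside 19.4% and 20.2% of all genes. RNR1, the large subunit of ribonucleotide reductase, had 2457, 2417 and 2731 normalised counts in 32 °C roots and 1157 in 22 °C roots. The helicase subunits MCM2, MCM3 and MCM5 had log2 fold changes of 1.13, 1.21 and 0.99. Of 17 mitosis genes 2 were higher, 11.8%, and 0 lower, and after TMM scaling 1 was higher and 3 were lower. Without gradient replicate 3 there was 1 lower. The mitotic cyclin CYCB1;1 had 263, 227 and 310 in 32 °C roots and 310 in 22 °C roots, and was not called. The difference between the S phase and mitosis lists was not tested. Of 18 listed histone genes 0 were higher, 5 lower and 13 not called, and the 5 include the linker histone HIS1-3 described below. After TMM scaling 0 were higher and 10 lower, and the median log2 fold change as deposited was -0.61. These histone counts moved with the library left out, as given below.

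Among genes induced by DNA damage, 6 of 11 were higher and 0 lower, but 2 were higher after TMM scaling. The 6 are 54.5%, beside 31.9% of all genes, and the 2 stand beside 19.4% of all genes with TMM scaling. GMI1, which is induced by irradiation and acts in DNA repair, stood apart with 1128, 1296 and 1163 normalised counts in 32 °C roots and 58 in 22 °C roots (log2 fold change 4.34 ± 0.37, adjusted p = 0.00019). BRCA1, a repair factor, had 335, 349 and 354 against 128. Genes of DNA methylation and silencing were higher in 8 of 12 and lower in 1, or 6 and 1 after TMM scaling. The shares as deposited were 66.7% and 8.33%, beside 31.9% and 12.1% of all genes. The methyltransferases CMT2 and KYP, which act on DNA and on histone H3, had 1393, 1328 and 1385 against 543, and 1125, 1249 and 1091 against 518. RDR2 and SGS3, which help make silencing RNAs, had log2 fold changes of 1.53 and 1.45. The one that fell was ROS1, a DNA demethylase, with 323, 353 and 386 in 32 °C roots and 1001 in 22 °C roots (adjusted p = 0.00064).

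Nucleolar genes for ribosome assembly were higher in 8 of 12 and lower in 0, or 5 and 0 after TMM scaling. The share higher as deposited was 66.7%. Of all genes 31.9% were higher and 12.1% lower. NUC-L2, a nucleolin, had 1216, 1350 and 1101 normalised counts in 32 °C roots and 112 in 22 °C roots (log2 fold change 3.43 ± 0.17, adjusted p = 3.5e-05), while its relative NUC-L1 had 16636, 15815 and 16553 against 7572. PUM24, an RNA-binding assembly factor, had 1729, 1706 and 1704 against 643. Ribosomal protein genes themselves were seldom called, with 24 of 261 higher, 9.2%, and 6 lower, 2.3%. TMM scaling made these 16 and 41, and without gradient replicate 3 they were 40 and 62. The lower count was 27 without gradient replicate 1, 3 without gradient replicate 2 or 32 °C replicate 3, and 2 without 32 °C replicate 1. HIS1-3, a linker histone induced by drought, had 1110, 1082 and 629 in 32 °C roots and 6127 in 22 °C roots (log2 fold change -2.75, adjusted p = 0.00052).

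Cytokinin genes were called higher in a larger share than all genes were. Of 21 tested, 10 were higher and 2 lower, or 9 and 3 after TMM scaling. The shares as deposited were 47.6% and 9.52%, beside 31.9% and 12.1% of all genes. Their median log2 fold change was 0.67, beside 0.29 for all genes. Both synthesis and breakdown were involved. IPT3, which makes the cytokinin side chain, had 757, 997 and 504 normalised counts in 32 °C roots and 104 in 22 °C roots, and IPT7 had 168, 209 and 215 against 57. CYP735A2, which forms trans-zeatin, had 3654, 3112 and 2668 against 915. CKX4, a cytokinin oxidase that removes the hormone, had 3102, 3577 and 3094 against 724 (log2 fold change 2.16 ± 0.15, adjusted p = 8.6e-05). ARR5, a response regulator that cytokinin induces, had 3206, 3531 and 2771 against 1583. All of these were called higher in both scalings.

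Most gibberellin genes were not called. Of 16 tested, 5 were lower, 2 higher and 9 not called, or 6 lower and 1 higher after TMM scaling, and the median log2 fold change was -0.03. The share lower was 31.2%, beside 12.1% of all genes, and the share higher 12.5%, beside 31.9%. The count of 2 higher was 1 without 32 °C replicate 1 or 2 and 4 without gradient replicate 3. GA3OX2, which makes the active hormone, had 73, 98 and 66 normalised counts in 32 °C roots and 338 in 22 °C roots. The catabolic genes GA2OX8 and GA2OX1 also fell, with 24, 28 and 43 against 199, and 4, 3 and 10 against 38. RGL3, a DELLA repressor, had 217, 269 and 232 against 553.

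Auxin carriers differed in direction. AUX1 and LAX3, which import auxin, had 9412, 8903 and 9292 against 3379 and 4696, 4062 and 4786 against 2164. LAX1 of the same family had 1069, 1251 and 836 normalised counts in 32 °C roots and 2220 in 22 °C roots. YUC8, an auxin synthesis gene known from warmed shoots, had 433, 460 and 389 against 265 (log2 fold change 0.68, adjusted p = 0.014), and it was not called after TMM scaling or without 32 °C replicate 1. In the list of auxin synthesis and transport 9 of 19 were higher and 2 lower, 47.4% and 10.5%, beside 31.9% and 12.1% of all genes. The 9 became 2 with TMM scaling, 4 without 32 °C replicate 1 and 4 without gradient replicate 2, and the 2, which stayed 2 with TMM scaling, became 1 without 32 °C replicate 1 or 2 or gradient replicate 2.

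In the ethylene list 7 of 20 were higher and 0 lower, with 3 higher and 1 lower after TMM scaling and 4 higher without 32 °C replicate 1. The share higher was 35%, near the 31.9% of all genes. ETR2, an ethylene receptor that the hormone induces, had 675, 756 and 497 normalised counts in 32 °C roots and 166 in 22 °C roots. In the brassinosteroid list 3 of 11 were higher and 1 lower, or 2 and 3 after TMM scaling. The shares as deposited were 27.3% and 9.09%, near the 31.9% and 12.1% of all genes. The 1 became 0 without 32 °C replicate 1 or 2 or gradient replicate 2, and 2 without gradient replicate 1 or 3. The synthesis genes CYP90D1 and DWF4 were higher in both scalings, with log2 fold changes of 1.98 and 0.82. CPD of the same pathway had 1585, 1625 and 1360 normalised counts in 32 °C roots and 2062 in 22 °C roots and was lower in both (adjusted p = 0.043 as deposited). DET2, a further synthesis gene, and BES1, a transcription factor of the response, were called lower after TMM scaling only.

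Jasmonate genes split, with 6 of 17 higher and 5 lower, or 4 and 7 after TMM scaling. The share higher was 35.3%, near the 31.9% of all genes, and the share lower 29.4%, beside 12.1%. LOX4 and AOC3, enzymes of its synthesis, had 288, 521 and 576 against 58 and 2750, 3446 and 3777 against 1108. The repressor genes JAZ2 and JAZ9 fell, to 1285, 1497 and 1460 in 32 °C roots against 3124 in 22 °C roots, and to 107, 134 and 136 against 404. The storage protein genes VSP1 and VSP2 moved apart, VSP2 with 1655, 2142 and 2100 against 305 and VSP1 with 2180, 1499 and 2125 against 6102. They are near-identical neighbours, so their split is uncertain.

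In the salicylic acid list 5 of 13 were higher, 1 lower and 7 not called, with the same counts after TMM scaling. The share higher was 38.5%, near the 31.9% of all genes as deposited and beside 19.4% with TMM scaling. SARD1, which switches on salicylic acid synthesis, had 174, 239 and 182 normalised counts in 32 °C roots and 28 in 22 °C roots. PAD4, a signalling lipase-like protein, had 2065, 2739 and 3383 against 541, and FMO1, which makes N-hydroxypipecolic acid, had 521, 608 and 1114 against 107. ICS1, the synthesis enzyme itself, was not called, at 364, 360 and 728 against 275. In the list of camalexin and pattern response genes 5 of 13 were higher and 3 lower in both scalings. The share higher was 38.5%, near the 31.9% of all genes as deposited, and the share lower 23.1%, beside 12.1%. WRKY53, a stress and senescence regulator, had 2522, 3210 and 2933 in 32 °C roots and 158 in 22 °C roots (log2 fold change 4.18 ± 0.23, adjusted p = 4.8e-05). CYP71A13, of the camalexin pathway, fell, with 7, 23 and 11 against 211. The respiratory burst oxidase gene RBOHD had 3888, 4972 and 6230 against 1465.

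**Figure D4:**
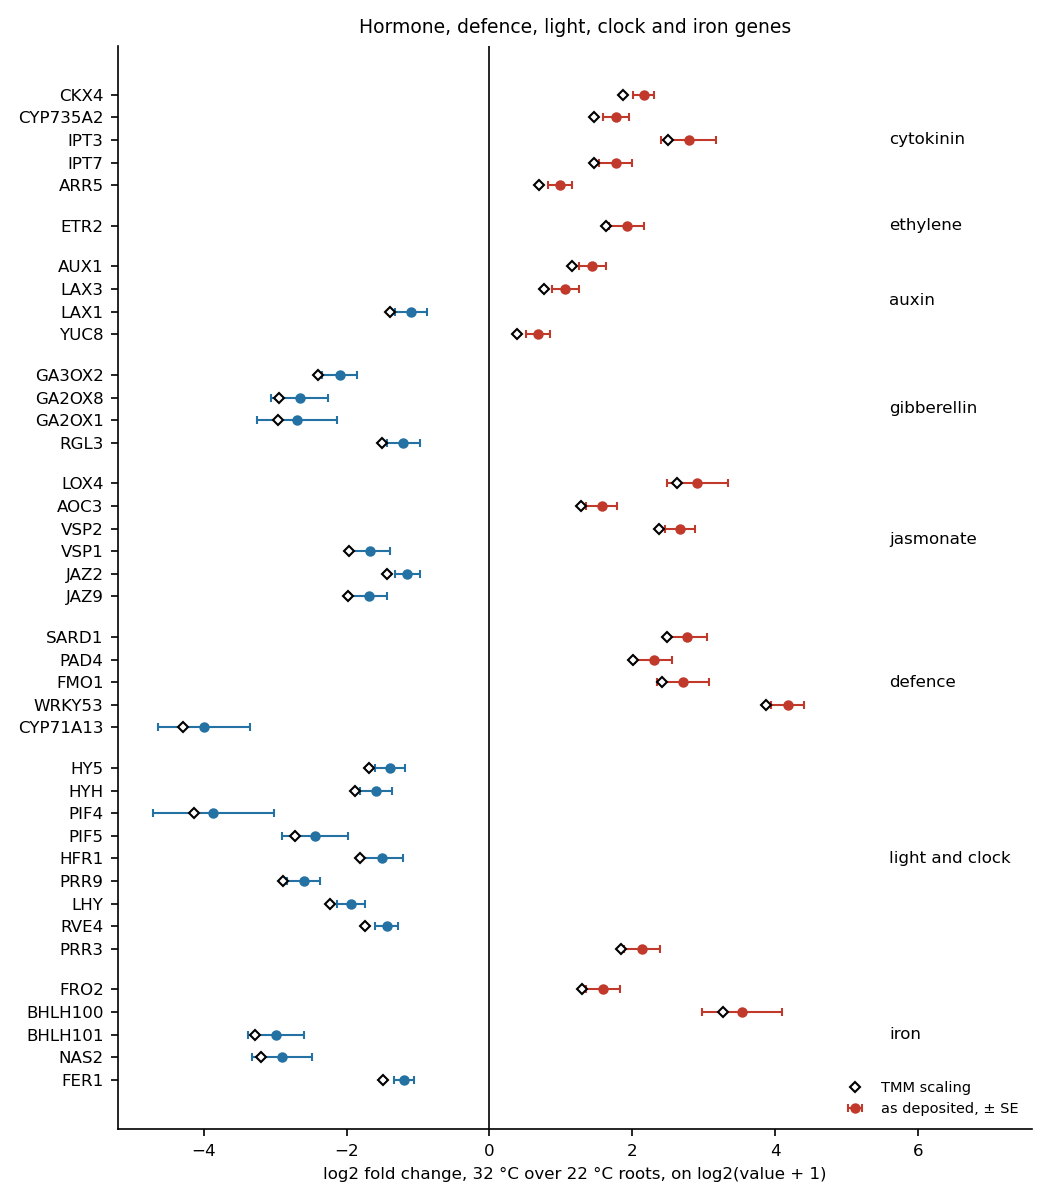
Log2 fold change of 32 °C over 22 °C roots for named genes by role, with points and bars for the estimate ± SE as deposited (red higher, blue lower) and diamonds for TMM scaling. TMM scaling shifts each gene to the left without moving any of these across 0.

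HKT1, a sodium carrier that draws sodium out of the xylem, rose steeply. It had 2236, 2771 and 1743 normalised counts in 32 °C roots and 65 in 22 °C roots (log2 fold change 5.07 ± 0.30, adjusted p = 5.9e-05), and the gradient roots had 839, 1325 and 1038. NRT1.5, which loads nitrate into the xylem, had 27500, 23607 and 27525 against 78093. HAK5, a potassium uptake carrier, had 649, 400 and 1655 against 3336 and was not called without 32 °C replicate 1. NRT2.1, a high-affinity nitrate carrier, was low in both groups and not called, at 24, 31 and 36 against 15. NIR1, the nitrite reductase, had 8246, 7667 and 9305 against 4027.

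Iron genes were called in both directions, at shares near those of all genes as deposited. Of 24 tested, 6 were higher and 4 lower, and TMM scaling made these 4 and 8. The first counts are 25% and 16.7%, beside 31.9% and 12.1% of all genes. With TMM scaling 19.4% of all genes were higher and 20.2% lower. FRO2, the ferric reductase of iron uptake, had 332, 322 and 456 normalised counts in 32 °C roots and 121 in 22 °C roots. IRT1, its partner in uptake, was not called, at 776, 517 and 695 against 946, though it was called lower after TMM scaling. The related iron-deficiency regulators BHLH100 and BHLH101 moved apart, BHLH100 with 143, 63 and 57 against 6 and BHLH101 with 11, 14 and 10 against 99. NAS2, which makes the metal chelator nicotianamine, had 47, 38 and 70 against 383, and the storage gene FER1 had 2980, 3054 and 3085 against 6973. In the sulfur list 7 of 17 were higher and 0 lower, or 3 and 1 after TMM scaling. The share higher was 41.2%, beside 31.9% of all genes. Without 32 °C replicate 1 the count of 7 was 4, and without 32 °C replicate 3 there was 1 lower. SULTR2;1, a sulfate carrier, had 1701, 1878 and 2124 against 391.

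Some light signalling genes fell, though most of the list did not. In the list of light and warmth genes 5 of 13 were lower in both scalings, and the median log2 fold change was 0.30, beside 0.29 for all genes. The share lower was 38.5%, beside 12.1% of all genes, and the share higher 15.4%, beside 31.9%. HY5 and HYH, which promote light responses, had 499, 550 and 593 against 1441, and 211, 173 and 247 against 630. PIF4 and PIF5, known as promoters of warmth growth in shoots, had 3, 9 and 10 against 110, and 14, 18 and 15 against 89. For PIF4 the log2 fold change was -3.87 ± 0.85 (SE) at an adjusted p of 0.0083. The 2 higher were lost with TMM scaling, without 32 °C replicate 1 or 2 and without gradient replicate 2, were 1 without 32 °C replicate 3 and were 4 without gradient replicate 3.

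Of 16 clock genes 5 were lower, 3 higher and 8 not called, or 7 lower and 2 higher after TMM scaling, and the 3 became 5 without gradient replicate 3. The share lower was 31.2%, beside 12.1% of all genes, and the share higher 18.8%, beside 31.9%. PRR9 and LHY, which peak around dawn, had 185, 145 and 175 normalised counts in 32 °C roots against 1018, and 358, 384 and 448 against 1513. RVE4 of the LHY family had 1543, 1545 and 1276 against 3945. PRR3 rose, with 1092, 1065 and 945 in 32 °C roots and 234 in 22 °C roots, and CCA1 was not called, at 1099, 1315 and 844 against 1726, but was called lower after TMM scaling. The labels give no hour of harvest. Leaf genes were scarce in all roots: 9 green tissue markers summed to 2217 to 4893 counts in 32 °C roots and 6343 in 22 °C roots, against 903848 to 945873 in 32 °C shoots and 1542348 to 1542470 in 22 °C shoots. Of these 9, 8 were tested and none was called. In the longer list of green tissue genes 2 of 11 were lower and 0 higher, or 3 and 0 after TMM scaling, with a median log2 fold change of -1.09. The 2 were CAO and GLK1, which act in chlorophyll synthesis and chloroplast development. The 2 became 1 without any 32 °C replicate or gradient replicate 2, and 4 without gradient replicate 1 or 3. LHCB1.1 had 18, 22 and 28 in 32 °C roots and 44 in 22 °C roots.

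In the low oxygen list 6 of 13 were higher, 5 after TMM scaling. The share higher was 46.2%, beside 31.9% of all genes, and the share lower 15.4%, beside 12.1%. HRE2, a transcription factor of hypoxia, had 438, 379 and 396 normalised counts in 32 °C roots and 16 in 22 °C roots (log2 fold change 4.57 ± 0.43, adjusted p = 0.00027), and the haemoglobin gene HB1 had 424, 425 and 641 against 156. The fermentation enzyme ADH1 was not called, at 320, 323 and 342 against 244. Lower calls numbered 2 in both scalings, or 0 without 32 °C replicate 1 and 1 without 32 °C replicate 2 or 3 or gradient replicate 2. In proline synthesis P5CS1, the first enzyme, fell to 2503, 2536 and 2722 against 6087, and P5CR, the last, had 12329, 14175 and 10861 against 5066.

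Several other lists, all short, had few called members by count. Root hair, auxin response, potassium and sodium, primary wall cellulose, XTH, splicing factor, fatty acid desaturation, compatible solute, triterpene and ER body genes each had at most 3 called members in either direction. Shares higher ran from 0% for ER body genes to 33.3% for triterpene genes, beside 31.9% of all genes. Shares lower reached 20% for potassium and sodium and for compatible solute genes, beside 12.1%. After TMM scaling 4 root hair, 4 XTH and 5 splicing genes were lower, and the other counts stayed at 3 or less. Without gradient replicate 3 the counts called higher were 6 for cellulose, 5 for auxin response and 4 each for potassium and sodium, splicing, desaturation, triterpene and ER body genes, and 5 splicing genes were lower. Without gradient replicate 1 there were 4 each of cellulose, auxin response and triterpene genes higher and of XTH and splicing genes lower. Triterpene and potassium and sodium genes called higher each fell to 1 without 32 °C replicate 1. Nitrogen genes had 5 of 19 higher, 26.3%, and 1 lower, 5.26%, or 2 and 6 after TMM scaling. The 5 became 3 without any 32 °C replicate or gradient replicate 2, and the 1 became 2 without 32 °C replicate 3 or gradient replicate 3 and 4 without gradient replicate 1. Of 18 histone genes 5 were lower and 0 higher, and the 5 became 2 without any 32 °C replicate or gradient replicate 2, 8 without gradient replicate 1, 13 without gradient replicate 3 and 10 with TMM scaling. The share lower as deposited was 27.8%, beside 12.1% of all genes.

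The change in roots was set beside that in shoots for the genes with the largest rises and falls. Of these 24 genes, 8 were left out because they were listed at 0 in all libraries of a group, and 12 of the remaining 16 differed between the organs in limma's interaction test, against 27.1% of 23070 genes. The root change was the more positive in 4 and the more negative in 8, beside 7.46% and 19.7% of all genes. The list was chosen for large changes in the root, so a larger root change is partly built in. BGAL7 fell in roots, whereas in shoots it had 452, 464 and 247 normalised counts at 32 °C and 45 and 47 at 22 °C (root minus shoot log2 difference -9.28, adjusted p = 2.7e-07). SAG13 had the same pattern, with 236, 791 and 1327 in 32 °C shoots and 33 and 42 in 22 °C shoots (difference -10.97, adjusted p = 2.8e-05). The kinase AT1G66930 was flat in shoots, at 69, 61 and 66 at 32 °C and 62 and 67 at 22 °C (difference 6.88, adjusted p = 1.2e-06).

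By contrast, the Cox19-like gene AT5G09570 had 1042, 1068 and 1129 normalised counts in 32 °C shoots and 10 and 13 in 22 °C shoots, and its change was not called different from that of roots (difference 0.47 ± 0.37, SE, adjusted p = 0.37). NDB4 was higher at 32 °C in shoots as well, with 280, 297 and 243 in 32 °C shoots against 5 and 3 in 22 °C shoots. Its larger rise in roots (difference 2.2, adjusted p = 0.035) was not called without 32 °C root replicate 1 or 3, without any 1 of the 3 libraries of 32 °C shoots or without 22 °C shoot replicate 1, and lay between 1.90 and 2.26 in those fits. Mitochondrion-encoded loci without the pair of most abundant held 0.23%, 0.173% and 0.201% of the totals in 32 °C shoots and 0.00707% and 0.00628% in 22 °C shoots.

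**Figure D5:**
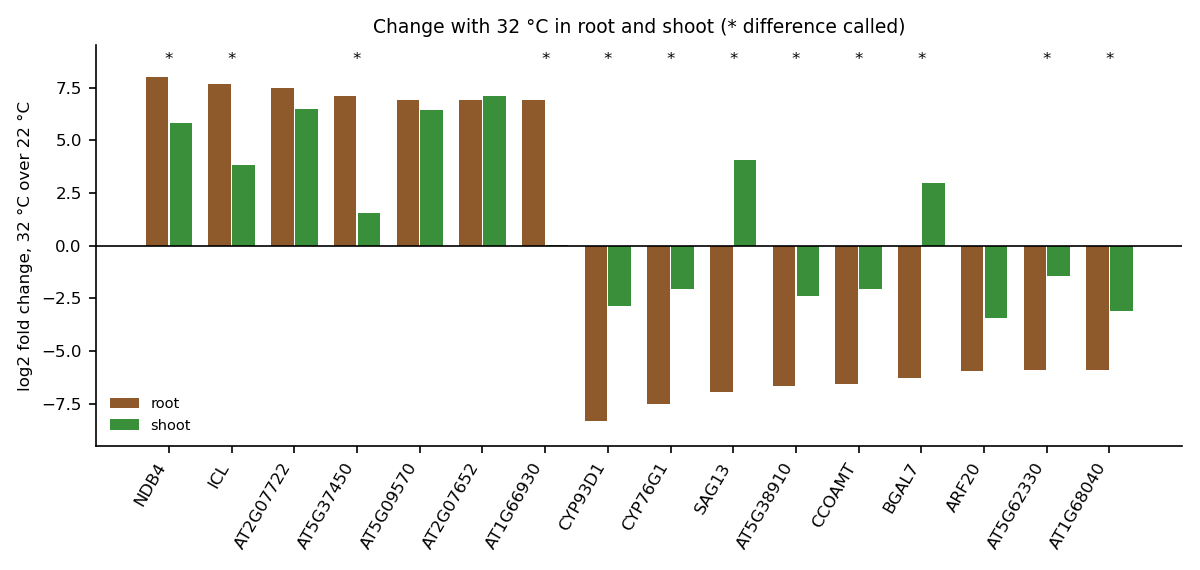
Log2 fold change of 32 °C over 22 °C in root (brown) and shoot (green) for 16 genes with the largest root changes, where an asterisk marks a called difference between the organs. SAG13 and BGAL7 point in opposite directions, and AT1G66930 changed in the root at 6.90 beside 0.02 in the shoot.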

How the data were processed

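Poly(A) RNA was sequenced from roots and shoots of wild type seedlings. The authors deposited 1 table of normalised counts, treated as a score because the values are whole numbers whose scaling is not stated. Per the submitters' processing notes STAR 2.5.3a, HISAT2 and DESeq2 were named, with no role or order. Raw counts and read depth were not used here, so no counting interval is given. Symbols came from the RefSeq TAIR10.1 gene table, which matched 32548 of 32833 loci. No sequence or coordinate is printed because the sources used here do not give the build.

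Values were taken as log2(value + 1), which understates the change of low genes. Genes with at least 10 in at least 2 root columns were fitted with limma 3.58.1 in R 4.3.3 with an intensity trend. The 3 root groups entered 1 fit, with the identical 22 °C columns as 1 library and 4 residual degrees of freedom. P-values were Benjamini-Hochberg adjusted over all genes tested and called below 0.05. The difference between organs was an interaction term with 8 residual degrees of freedom. The fit was tested on simulated data. TMM scaling, pseudocounts of 0.5 and 8, other filters, variance models, sample sets, a replicate block and the omission of each library were alternatives.

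Named genes were the 12 largest rises and 12 largest falls whose groups did not overlap and whose higher group averaged 50 or more, the 6 largest rises and 6 largest falls in mean, up to 6 called and 3 uncalled members of each list by adjusted p, and 10 fixed genes (NDB4, CYP93D1, TT4, PIF4, YUC8, CYCB1;1, IRT1, NRT2.1, HAK5 and LHCB1.1). Heat shock, aquaporin and suberin lists were left out. Members and lists were chosen with earlier results of these data known. A gene that the rule names is not reported here.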

Additional observations from a re-analysis of the deposited data

Results flagged for a closer look

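The change with 32 °C differed between root and shoot, by limma's interaction test, in 12 of the 16 genes compared. The genes were chosen for large root changes, and no explanation was weighed. The values are root minus shoot differences on the log2 scale.

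The root change was the more positive in 4 genes. The difference was 2.2 for NDB4 (adjusted p = 0.035), 3.86 for ICL (adjusted p = 0.027), 5.54 for AT5G37450 (adjusted p = 0.00017) and 6.88 for AT1G66930 (adjusted p = 1.2e-06). NDB4 was not called without 32 °C root replicate 1 or 3, 32 °C shoot replicate 1, 2 or 3 or 22 °C shoot replicate 1 (1.90 to 2.26). ICL was not called without 32 °C root replicate 1 or 2, 32 °C shoot replicate 1 or 3 or 22 °C shoot replicate 1 (2.82 to 3.77).

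The root change was the more negative in 8 genes. The P450 genes CYP93D1 and CYP76G1 had differences of -5.48 and -5.47. SAG13 had -10.97 and BGAL7 -9.28, the 2 genes whose fitted changes had opposite signs in the organs. CCOAMT had -4.52, AT5G62330 had -4.47, AT5G38910 had -4.27 and AT1G68040 had -2.79. AT5G38910 was not called without 22 °C shoot replicate 1 (-3.83), nor AT1G68040 without 22 °C shoot replicate 2 (-2.53). Several of these were near 0 in shoots, where AT5G62330 had 0, 0 and 2 normalised counts at 32 °C and 4 and 2 at 22 °C.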

How the results depend on the processing

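Calls over all genes moved with the scaling and the variance model. The 9630 calls became 16040 with library weights, whose iteration did not converge, and 1253 with a minimum fold change of 2. Genes called higher numbered 4240 with TMM scaling, 10824 with library weights and 940 with a minimum fold change of 2. Genes called lower numbered 4424 with TMM scaling, 5216 with library weights, 4086 with the identical columns as 2 replicates and 313 with a minimum fold change of 2. Without 1 library at a time, calls ranged from 7056 to 11802, lowest without 32 °C replicate 1 and highest without gradient replicate 3. Deviations of same-numbered 32 °C and gradient libraries correlated at 0.02, -0.10 and -0.21, so no pairing by number was seen in them. The 22 °C library, alone in its group, has no such deviation, and a batch shared by number was not tested. With the replicate block there were 7137 calls with the 22 °C library numbered 1 and 6754 with it numbered 2, of which 1747 were lower.

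Of 167 genes examined 152 were called, and 145 were called under every alternative other than the minimum fold change of 2. AOX1A, not called, turned sign with TMM scaling (-0.25) and with the replicate block and the 22 °C library numbered 2 (-0.01), and ranged from -0.02 to 0.09 without 1 library.

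Root minus shoot differences that changed call or sign were these. With a pseudocount of 0.5 AT5G38910 (-3.96) and AT1G68040 (-2.37) were not called, and with 8 ARF20 (-2.30) was called and AT2G07652 turned to 0.21. Without 1 library NDB4 ranged from 1.90 to 2.49, ICL from 2.82 to 4.90, AT2G07722 from 0.59 to 1.36, AT2G07652 from -0.61 to 0.17, AT5G38910 from -4.72 to -3.41, ARF20 from -3.12 to -1.96 and AT1G68040 from -3.06 to -2.46. The cause was not tested. Read depth is unknown, so what it limits could not be measured. The promoter motif search was not run.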
